A study of Mus musculus with 24 samples.

Results

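The genes described here are 10 genes of dietary fat absorption and lipoprotein assembly: Apoa1, Apoa4, Apob, Apoc3, Fabp1, Fabp2, Fabp6, Mttp, Cd36 and Dgat1. They were taken as a fixed list of symbols, each matched to 1 Ensembl gene identifier, and all 10 were found among the 45513 genes of the count files. They were followed in 24 RNA-seq libraries of sorted mouse intestinal epithelial cells, 6 in each of 4 groups: the small intestine (SI) of WT and of 9S/T-A mice, and the colon of each. WT stands for homozygous Atoh1(WT)CreERT2 mice, in which a tamoxifen-inducible Cre recombinase was placed downstream of the normal Atoh1 coding sequence at its own locus. 9S/T-A stands for homozygous Atoh1(9S/T-A)CreERT2 mice, built the same way but with the serines and threonines of the proline-directed phosphorylation sites of ATOH1, the basic helix-loop-helix factor of secretory fate, changed to alanine. Mice of both genotypes also carried the R26R tdTom reporter, so no group lacked Cre or reporter. They were 8 to 16 weeks old, each received 3 mg tamoxifen, and live EpCAM+tdTom+ cells were collected 24 h later, after the villus-rich fraction had been discarded. Each group held 3 libraries from females and 3 from males. The Cre was driven by Atoh1 itself, so the sorted cells are cells that expressed Atoh1 around the time of tamoxifen, not absorptive enterocytes as a class, and each library pools many cells.

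In the absorptive enterocyte, fatty acids and monoglycerides from the gut lumen are taken up, carried through the cytosol by fatty acid binding proteins, rebuilt into triglyceride on the endoplasmic reticulum and loaded onto apolipoprotein B to make chylomicrons, which leave for the lymph. Most of this work is done in the proximal SI. The bile acids that dissolve the fat are recovered in the ileum, whose enterocytes carry their own bile acid binding protein. Goblet and Paneth cells, the main Atoh1-dependent cells of the intestine, are not known for this pathway.

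Library totals ranged from 36.0 to 65.8 M counted reads. The sorted cells carried the markers of secretory cells: 9 goblet genes summed to between 316639 and 510703 CPM in the 12 SI libraries, and to between 37053 and 83600 CPM in the 12 colon libraries. CPM here are counts scaled to a common library size after TMM scaling, which corrects totals for a few very abundant genes, so they need not add up to the same total in each library. Atoh1 itself ran from 57.7 to 124 CPM over all 24 libraries, and counts per gene cannot show the alanine substitutions. The 15 absorptive enterocyte markers, none of them among the 10 genes, summed to 3243 ± 1069 CPM in WT SI, 3654 ± 766 in 9S/T-A SI, 430 ± 48.5 in WT colon and 436 ± 57.4 in 9S/T-A colon (mean ± SD, n = 6 in each). In bulk libraries such as these, fewer cells of a type and less RNA per cell cannot be told apart.

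In SI the 10 genes spanned a wide range of levels, and all but Fabp6 were readily measured. Per kilobase of exon, which is the scale on which genes can be compared, Fabp2, Apoa1, Apoa4 and Fabp1 led in WT SI with means of 652, 614, 491 and 491 CPM per kb, and neighbours in that order overlapped between libraries. Dgat1, Mttp, Apoc3 and Apob followed at 61.7, 46.5, 40.1 and 20.9 CPM per kb, set apart from Fabp1 without overlap but overlapping their own neighbours. Cd36 stood at 1.49 CPM per kb and Fabp6 at 0.269. The same 4 genes led in 9S/T-A SI, at 959 CPM per kb for Fabp2, 830 for Apoa4, 800 for Apoa1 and 647 for Fabp1, again with overlapping neighbours. In colon the order was different: Fabp2 led at 82.1 CPM per kb in WT and 85.8 in 9S/T-A, Dgat1 came next at 6.48 and 6.31, and Fabp6 after it at 4.33 and 3.52. None of these 3 overlapped its neighbours between libraries. In WT colon, however, the lowest Dgat1 library and the highest Fabp6 library were both at 6.21 CPM per kb after rounding. Fabp1, Apoa1, Apoa4 and Apob lay between 0.540 and 1.12 CPM per kb in WT colon and between 0.539 and 0.723 in 9S/T-A colon, and Mttp, Apoc3 and Cd36 lay below them.

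**Figure D1:**
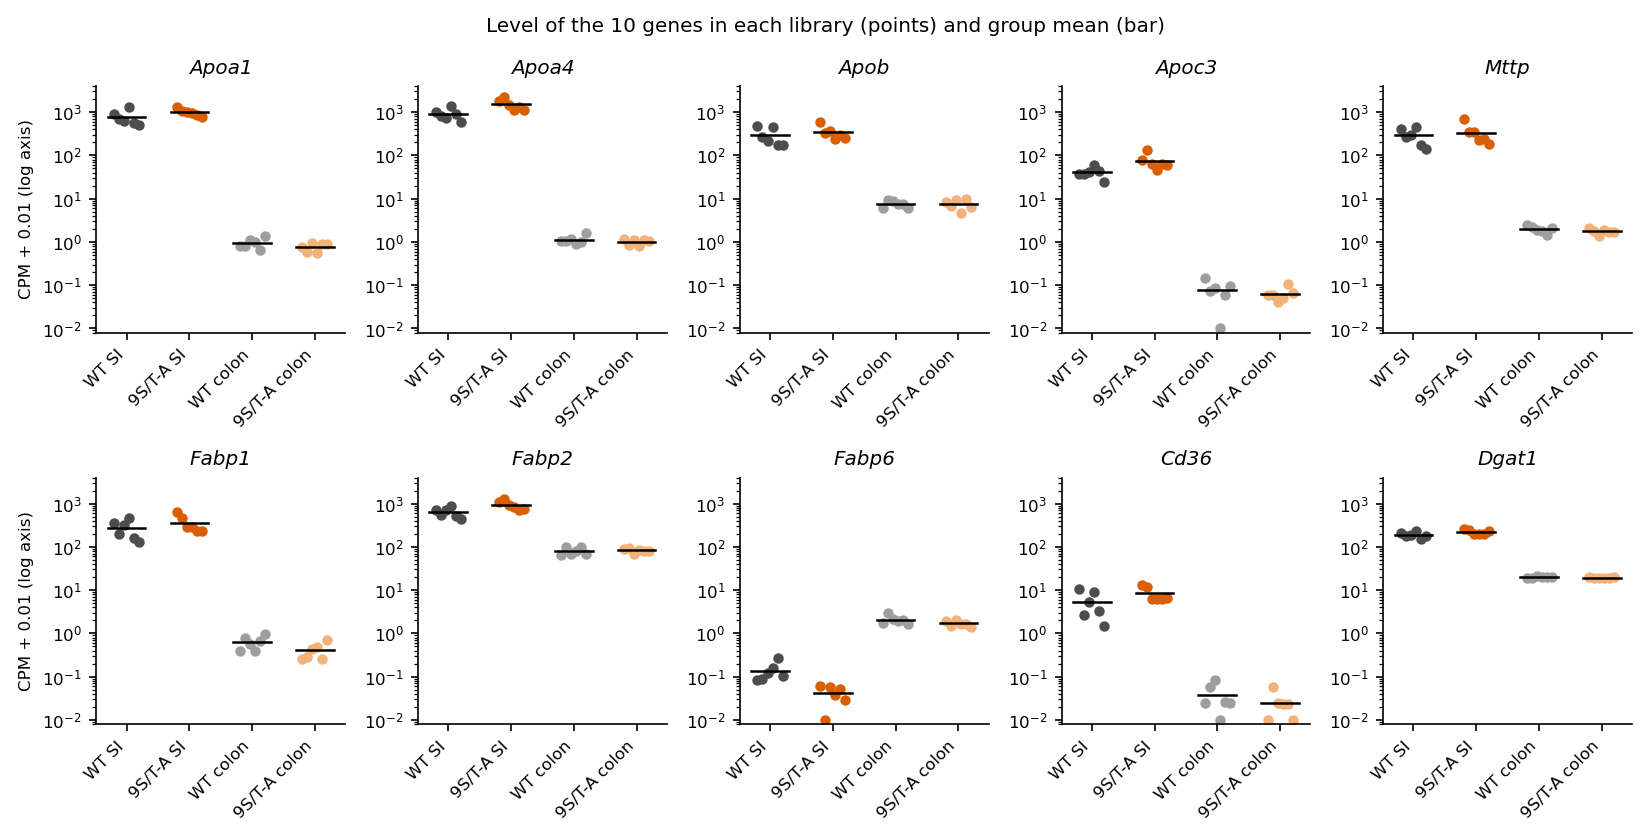
Level of each gene (CPM + 0.01, log axis) in every library, with 1 point per library, ordered by replicate number within a group, and a bar at the group mean. For 9 genes both SI groups lie above both colon groups without overlap, and for Fabp6 the colon groups lie above the SI groups.

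In WT, all 10 genes passed the test between colon and SI, 9 of them lower in colon and 1, Fabp6, higher, and in 9S/T-A the same 10 genes passed in the same directions. The test was edgeR's quasi-likelihood test over all genes with Benjamini-Hochberg adjustment, called at an adjusted p under 0.05. The background is high in this comparison: 30.4% of the 16979 genes tested were lower and 33.1% higher in WT colon, and in 9S/T-A 28.0% were lower and 32.9% higher. The 2 tissues did not overlap for any of the 10 genes in either genotype, against 43.5% of all genes tested in WT and 41.1% in 9S/T-A. What set the 10 genes apart from the typical gene was the size of the difference, with a median log2 fold change of -7.36 in WT and -8.32 in 9S/T-A. Over all genes tested the median was 0.03 and 0.04, and the median without regard to sign was 0.47 and 0.49. Medians in WT and 9S/T-A were -9.24 and -8.26 for 8 Paneth markers, and -4.22 and -4.25 for 15 enterocyte markers. For 10 colonocyte markers they were 0.45 and 0.85. A large tissue difference was thus not particular to the 10 genes.

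Of the 4 apolipoproteins, Apoa1, Apoa4 and Apoc3 fell further than Apob. Apoa1, the main protein of high-density lipoprotein (ENSMUSG00000032083, chr9:46228580-46230466, plus strand, GRCm38), had a lowest, median and highest level of 495, 650 and 1276 CPM in WT SI and of 0.641, 0.898 and 1.37 CPM in WT colon. Its mean was 801-fold lower in colon (log2 fold change -9.67, SE 0.31, edgeR adjusted p = 8.04e-13). In 9S/T-A the 3 values were 765, 964 and 1305 CPM in SI and 0.540, 0.809 and 0.948 CPM in colon, 1299-fold lower (log2 fold change -10.36, SE 0.21). Every SI library was far above every colon library, and the 2 genotypes overlapped within each tissue.

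Apoa4, an apolipoprotein released on chylomicrons after a fatty meal, lies downstream of it on the same strand (ENSMUSG00000032080, chr9:46240696-46243459, plus strand). Its lowest, median and highest levels were 584, 846 and 1353 CPM in WT SI and 1111, 1388 and 2241 CPM in 9S/T-A SI, against 0.896, 1.03 and 1.59 CPM in WT colon and 0.775, 1.08 and 1.15 CPM in 9S/T-A colon. The mean was 797-fold lower in WT colon (log2 fold change -9.67, SE 0.26) and 1496-fold lower in 9S/T-A colon (-10.57, SE 0.25). A gene model, Gm10680, overlaps an exon of Apoa4 on the other strand, and the counting was strand-specific.

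Apoc3, an inhibitor of lipoprotein lipase, lies between them on the minus strand (ENSMUSG00000032081, chr9:46232933-46235636). It was lower in SI than its neighbours, with 24.3, 39.2 and 60.6 CPM as lowest, median and highest level in WT and 45.9, 62.4 and 135 CPM in 9S/T-A. In colon it was close to the limit of detection, with 0 to 9 reads per library in WT and 2 to 7 in 9S/T-A. Summed over libraries, the colon level was 611-fold lower in WT (exact 95% interval for counting error 420 to 928) and 1378-fold lower in 9S/T-A (918 to 2174). These intervals cover counting error only.

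Apob encodes the structural protein of the chylomicron (ENSMUSG00000020609, chr12:7977648-8016835, plus strand), and Mttp encodes the transfer protein that lipidates it (ENSMUSG00000028158, chr3:138089854-138144968, minus strand). Apob ran from 171 to 464 CPM with a median of 238 in WT SI and from 5.95 to 9.08 with a median of 7.61 in WT colon, a 38.7-fold lower mean (log2 fold change -5.31, SE 0.29). In 9S/T-A it ran from 234 to 600 CPM (median 308) in SI and from 4.54 to 9.99 (median 7.54) in colon, 45.9-fold lower. Mttp ran from 143 to 441 CPM (median 286) in WT SI and from 1.46 to 2.41 (median 1.98) in WT colon, 147-fold lower (log2 fold change -7.23, SE 0.31), and from 181 to 680 (median 291) against 1.34 to 2.13 (median 1.77) in 9S/T-A, 192-fold lower. Exons of Mttp overlap those of Gm43691 and Trmt10a on the other strand.

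The 3 fatty acid binding proteins behaved differently from each other. Fabp1, the liver-type protein shared by enterocytes and hepatocytes (ENSMUSG00000054422, chr6:71199827-71205023, plus strand), ran from 131 to 476 CPM (median 258) in WT SI and from 0.376 to 0.946 (median 0.610) in WT colon, 439-fold lower (log2 fold change -8.80, SE 0.40). In 9S/T-A it ran from 229 to 639 CPM (median 287) in SI and from 0.244 to 0.711 (median 0.357) in colon, 896-fold lower. Fabp2, the intestinal-type protein (ENSMUSG00000023057, chr3:122895072-122899506, plus strand), fell only 7.94-fold, from 429 to 867 CPM (median 622) in WT SI to between 66.1 and 98.4 (median 73.1) in WT colon (log2 fold change -3.02, SE 0.18). In 9S/T-A it ran from 713 to 1255 CPM (median 875) in SI and from 68.9 to 94.0 (median 82.6) in colon, 11.2-fold lower. Fabp2 was the one gene of the list that stayed at 66.1 CPM or above in every library of both tissues.

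Fabp6, the bile acid binding protein of the ileum (ENSMUSG00000020405, chr11:43596049-43601540, minus strand), was the exception. It had 3 to 12 reads per library in WT SI and 0 to 2 in 9S/T-A SI, but 112 to 190 in WT colon and 89 to 160 in 9S/T-A colon. Its lowest, median and highest levels in colon were 1.63, 2.0 and 2.97 CPM in WT and 1.40, 1.64 and 2.03 CPM in 9S/T-A. From summed reads, colon was 15.5-fold above SI in WT (exact 95% interval 10.9 to 22.6) and 54.7-fold above SI in 9S/T-A (27.6 to 127). The edgeR log2 fold changes were 3.92 (SE 0.28, adjusted p = 9.17e-09) and 5.64 (SE 0.33, adjusted p = 9.95e-10). The SI was sampled in its proximal part, so the level of Fabp6 in ileum was not measured here.

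Cd36, a scavenger receptor that binds long-chain fatty acids (ENSMUSG00000002944, chr5:17781690-17888801, minus strand), was the least abundant of the 9 SI genes. It ran from 1.44 to 10.4 CPM (median 4.29) in WT SI and from 6.24 to 13.2 (median 6.39) in 9S/T-A SI, with 0 to 5 reads per library in WT colon and 0 to 3 in 9S/T-A colon. Summed reads gave a 200.2-fold lower level in WT colon (exact 95% interval 112 to 402) and a 591-fold lower level in 9S/T-A colon (271 to 1613). Macrophages and endothelium also use Cd36. The 6 markers of those cells summed to between 0.472 and 0.850 CPM in SI, where Cdh5 and Kdr had no read in any WT library. Among SI libraries, 6 leukocyte markers had a mean sum of 2389 CPM for WT, of which Lyz2 made 2318. For 9S/T-A these means were 2078 and 2057 CPM. The part of such cells in the Cd36 values was not tested. Dgat1, the acyltransferase that completes triglyceride (ENSMUSG00000022555, chr15:76502015-76511951, minus strand), varied least of all. It ran from 155 to 229 CPM (median 182) in WT SI and from 19.0 to 20.8 (median 19.7) in WT colon, 9.53-fold lower (log2 fold change -3.29, SE 0.09), and from 193 to 253 (median 213) against 18.6 to 20.3 (median 19.0) in 9S/T-A, 11.3-fold lower. Its coefficient of variation among the 6 libraries was 3.54% in WT colon and 3.68% in 9S/T-A colon.

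**Figure D2:**
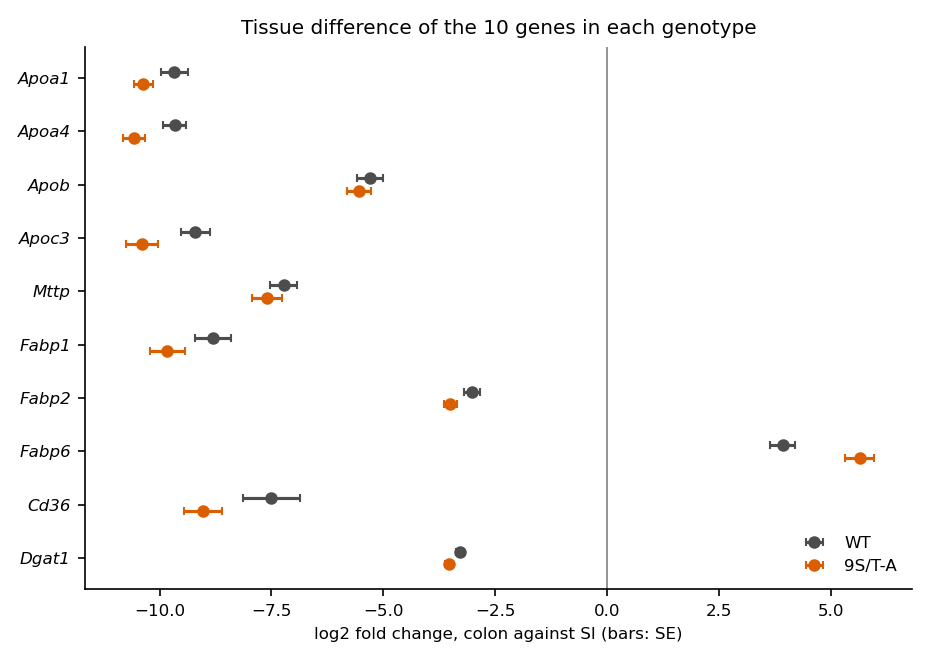
Log2 fold change of colon against SI for each gene in WT (grey) and 9S/T-A (orange), from edgeR, with SE bars. Apoa1, Apoa4, Apoc3, Fabp1, Cd36 and Mttp lie beyond -7 in both genotypes, Dgat1 and Fabp2 lie between -3 and -4, and Fabp6 is to the right of 0.

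Promoter sequence is shown for Fabp1 and Fabp6, paralogs that differed in opposite directions between the tissues, and for Apoa4, the gene with the smallest adjusted p between genotypes in SI. RefSeq (GRCm38.p6) gave a start for 8 of the 10 genes. Apoc3 and Dgat1 were not matched. In the 250 bases before each start, 6 short motifs were searched on both strands. The letters TATAAA stand for the TATA box near many start sites. The letters GTTAAT stand for a half-site of the hepatocyte nuclear factor HNF1, and AGGTCA stand for a half-site of HNF4 and other nuclear receptors. The letters TTTATG stand for the site of the intestinal CDX factors, AGATAA for that of GATA factors, and CAGCTG for the E-box of basic helix-loop-helix factors. Below, capitals mark these letters on either strand, each sequence is written in the direction of its gene, and the stretch ends before the first base that the count files or RefSeq place in the gene.
Fabp1, chr6:71199629-71199826, plus strand: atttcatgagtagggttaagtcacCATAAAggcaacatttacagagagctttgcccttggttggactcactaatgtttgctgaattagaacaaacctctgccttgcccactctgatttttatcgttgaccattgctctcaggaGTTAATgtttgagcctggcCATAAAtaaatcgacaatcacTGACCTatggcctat
Fabp6, chr11:43601563-43601812, minus strand: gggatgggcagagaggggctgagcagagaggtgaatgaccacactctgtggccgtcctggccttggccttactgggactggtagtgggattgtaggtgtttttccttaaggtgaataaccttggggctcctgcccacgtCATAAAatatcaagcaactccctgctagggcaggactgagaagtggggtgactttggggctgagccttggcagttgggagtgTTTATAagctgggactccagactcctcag
Apoa4, chr9:46240594-46240695, plus strand: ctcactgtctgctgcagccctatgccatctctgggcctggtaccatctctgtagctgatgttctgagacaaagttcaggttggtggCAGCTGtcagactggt
Fabp1 held 6 matches: CDX letters at -226 and -88, the HNF1 half-site at -107, the HNF4 half-site at -67 and -9, and the TATA box at -30, counted from the RefSeq start. The matches at -30 and -9 lie in the 52 bases that are not printed. Fabp6 held the CDX letters at -111 and the TATA box at -29, and so shared both with Fabp1. Apoa4 held the E-box at -164, also counted from the RefSeq start. That start lies 148 bases downstream of the gene start used for counting. The last 148 of the 250 bases searched for Apoa4 thus lie in the counted gene and are not printed. Over the 8 genes, TATAAA was found in 3 (Fabp1, Fabp6, Apob) and TTTATG in 3 (Fabp1, Fabp6, Cd36), while 12.4% and 10.8% of all 32851 promoters in the table held them. AGGTCA was found in 2 (Fabp1, Cd36; 14.0% of all), GTTAAT in 1 (6.43%), CAGCTG in 1 (13.0%) and AGATAA in 0 (9.99%). The RefSeq starts of Mttp and Cd36 lie 1550 and 52905 bases downstream of the gene start used for counting, so their windows describe another start site. The matches of Cd36 overlap each other, and no others do. A match is a run of letters, and none of these sites was measured.

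The genotype comparison asked whether blocking phosphorylation of ATOH1 changed these genes in tdTom+ cells. In SI, 9 of the 10 genes had enough reads to be tested, and 0 of 9 passed, against 1.94% of the 16236 genes tested. At an unadjusted p under 0.05 there were 3, against 2556 of the 16236 genes, and DESeq2 called 3 of 9 (Apoa4, Apoc3 and Fabp2; 4.80% of all genes with an adjusted p in DESeq2). All 9 log2 fold changes were above 0, with a median of 0.40 and a range of 0.21 to 0.86, while the median over all genes was 0.00 and 50.04% of them were above 0. Within groups these 9 genes varied together over the 12 SI libraries (Pearson r from 0.46 to 0.95), so their signs are not 9 separate observations. Of the 74 other genes of the pathway tested in SI, 52 were above 0, with a median of 0.10. With plain library totals in place of TMM the median of all genes moved to -0.11, and no gene of the list changed sign.

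Apoa4 was 1.69-fold higher in 9S/T-A SI on the means (log2 fold change 0.76, SE 0.21, edgeR adjusted p = 0.0801; DESeq2 adjusted p = 0.00814). The lowest 9S/T-A library, at 1111 CPM, was above 5 of the 6 WT libraries, and the highest WT library, at 1353 CPM, was above 3 of the 6 in 9S/T-A. Without WT SI replicate 5, that highest library, Apoa4 passed in edgeR (log2 fold change 0.91, adjusted p = 0.0311). Apoc3 was 1.82-fold higher (log2 fold change 0.86, SE 0.24, edgeR adjusted p = 0.0934; DESeq2 adjusted p = 0.0118), and its highest 9S/T-A library, at 135 CPM, was far from the other 5, which ended at 78.4. Fabp2 was 1.47-fold higher (log2 fold change 0.55, SE 0.17, edgeR adjusted p = 0.135; DESeq2 adjusted p = 0.0364).

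The other 6 tested genes lay between 1.16-fold and 1.57-fold on the means, with edgeR adjusted p between 0.330 and 0.787. Cd36, with a log2 fold change of 0.64, had the widest error (SE 0.40). Mttp, at 0.22 (SE 0.33), fell to -0.11 without 9S/T-A SI replicate 2, whose 680 CPM was the highest of its group. The 2 genotypes overlapped in all 9 genes, whereas they did not overlap in 2.07% of the genes tested.

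Fabp6 was too low in SI for the filter. Its reads did not overlap between the genotypes, at 3 to 12 per WT library and 0 to 2 per 9S/T-A library, and 33 reads in all against 8 gave a ratio of 0.233 (exact 95% interval for counting error 0.0928 to 0.513). Fitted on the 12 SI libraries with no filter, Fabp6 had a log2 fold change of -1.96 and an edgeR adjusted p of 0.159. In 1 model of all 24 libraries, where 2.90% of all genes were called, Apoa4 (edgeR adjusted p = 0.0178) and Apoc3 (edgeR adjusted p = 0.0243) were higher in 9S/T-A SI. Fabp6 passed the filter of that model only through its reads in colon, so its value there (-2.01, edgeR adjusted p = 0.00840) gives no support for a difference in SI.

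Of 6 leukocyte markers, Cd74 was higher in 9S/T-A colon, at 4.84 to 463 CPM against 1.69 to 8.75 CPM in WT colon with overlap (edgeR adjusted p = 0.0281), Ptprc and Lyz2 did not pass (log2 fold changes -0.40 and 0.59), and Cd3e, Cd79a and Itgax were too low to test. The part of Cd74-expressing cells in the colon values was not tested. In colon 8 of the genes were tested and 0 passed in edgeR or in DESeq2, with 0 at an unadjusted p under 0.05, while 0.318% of 16997 genes were called in edgeR, 254 in DESeq2 and 1497 had an unadjusted p under 0.05. The log2 fold changes ran from -0.61 (Fabp1, SE 0.33, edgeR adjusted p = 0.655) to 0.08 (Fabp2, SE 0.11, edgeR adjusted p = 0.986), with a median of -0.14 against 0.00 over all genes. The genotypes overlapped in all 10 genes, and 0.906% of the genes tested did not overlap. Dgat1, the most precisely measured, gave -0.02 (SE 0.06). For Apoc3 and Cd36, which were not tested in colon, the summed reads were 23 against 27 and 6 against 11, and the exact intervals of both ratios (0.430 to 1.42 and 0.153 to 1.48) included 1.

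Whether genotype acted differently in the 2 tissues was tested as the product of genotype and tissue over all 24 libraries. None of the 10 genes passed (0 in edgeR, 0 in DESeq2, 5 at an unadjusted p under 0.05), while of all 17953 genes 0.412% were called in edgeR, 257 genes in DESeq2, and 1740 had an unadjusted p under 0.05. The lowest adjusted p were those of Fabp6, with a difference of 1.71 on the log2 scale (SE 0.48, edgeR adjusted p = 0.131), and Apoa4, with -0.91 (SE 0.28, edgeR adjusted p = 0.193). Fabp6 again passed the filter only through its colon reads, and its SI reads were few, 33 for WT against 8 for 9S/T-A. Its value therefore gives no support for a genotype effect that differs between tissues. The 9 genes lower in colon all fell further in 9S/T-A than in WT, and none of these differences passed. On this scale they ran from -0.25 (Apob) to -1.53 (Cd36). The values of Cd36 and Apoc3 rest on few colon reads, 11 and 27 in all in WT and 6 and 23 in 9S/T-A.

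**Figure D3:**
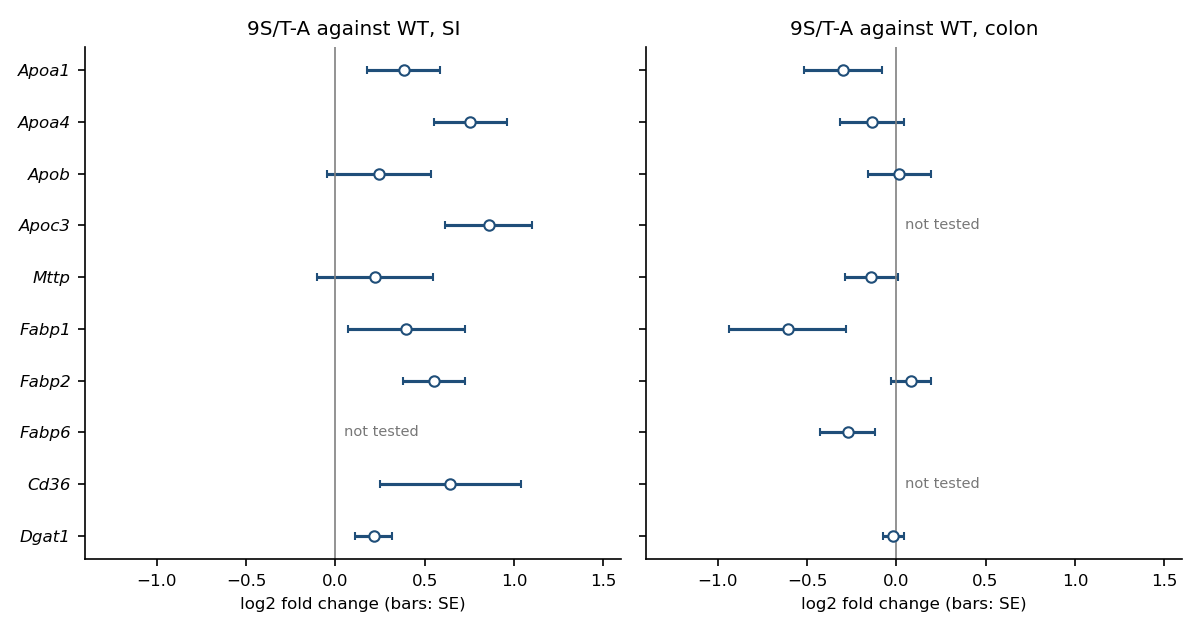
Log2 fold change of 9S/T-A against WT for each gene in SI (left) and colon (right), from edgeR, with SE bars. Open points did not pass an adjusted p under 0.05. All 9 points in SI lie to the right of 0, the points in colon lie on both sides, and no point passed.

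Over the 12 SI libraries, the deviations of single genes from their group means gave a Pearson r with the summed enterocyte markers of 0.92 for Apob, 0.86 for Apoa1, 0.82 for Mttp, 0.80 for Fabp1 and for Dgat1, 0.75 for Cd36, 0.63 for Fabp2, 0.53 for Apoa4, 0.26 for Apoc3 and -0.38 for Fabp6, as a description over libraries that share depth and cell makeup. The summed level of the 10 genes ran from 2157 to 5175 CPM in WT SI and from 3572 to 6443 in 9S/T-A SI, with means of 3365 ± 1088 and 4761 ± 1230 (SD, n = 6). The highest sums within each genotype, WT replicates 5 and 2 and 9S/T-A replicates 2 and 3, included the libraries with the highest enterocyte marker sums (4530, 4580 and 5191 CPM for WT replicates 5 and 2 and 9S/T-A replicate 2). Per library, the 10 genes came to 1.06 ± 0.203 times the enterocyte markers in WT SI, 1.31 ± 0.245 in 9S/T-A SI, 0.265 ± 0.0337 in WT colon and 0.268 ± 0.0385 in 9S/T-A colon. Of the 15 enterocyte markers, 13 had a log2 fold change above 0 between genotypes in SI, with a median of 0.16, and 0 passed in edgeR or DESeq2, with 2 at an unadjusted p under 0.05. All 9 goblet markers were above 0 as well, with a median of 0.28, and 0 passed in edgeR, 2 in DESeq2 and 3 at an unadjusted p under 0.05. Of the 8 Paneth markers 4 fell in 9S/T-A SI in edgeR, namely Mmp7, Ang4, Itln1 and Pla2g2a, and DESeq2 called 6. Of the 8, 1 was above 0 (log2 fold change 0.90), and the median was -0.58. Of 10 absorptive colonocyte markers 1 rose (Guca2a, log2 fold change 0.79) and 7 were above 0, and their sum was 891 ± 124 CPM in WT against 1405 ± 217 CPM in 9S/T-A. Of 10 enteroendocrine markers 1 fell (Gcg, -2.65) and 9 were below 0, of 4 tuft markers tested 1 fell (Pou2f3, -1.18) and all 4 were below 0, and of 2 stromal markers tested 1 fell (Vim, -1.30). The part of these shifts in the values of the 10 genes was not tested. Between tissues, 13 of the 15 enterocyte markers were lower in WT colon and 1 higher (median log2 fold change -4.22).

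**Figure D4:**
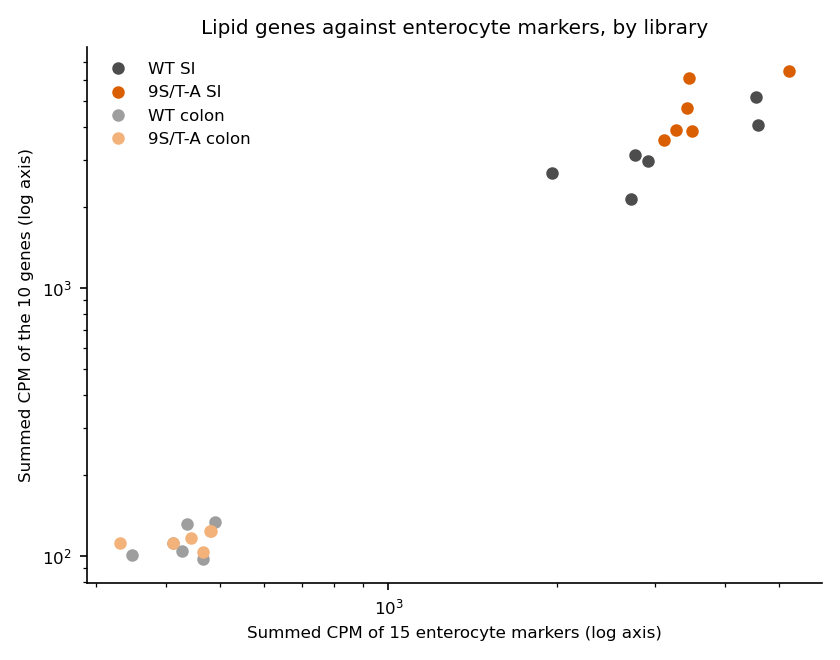
Summed level of the 10 genes against the summed level of 15 enterocyte markers (both in CPM, log axes), 1 point per library, coloured by group. The 12 SI libraries lie above and to the right of the 12 colon libraries, and the 2 genotypes overlap within each tissue.

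Around the 10 genes, 78 further genes of the same pathway were followed in 9 groups by role. In WT, 62 of the 73 tested passed between the tissues, 47 lower and 15 higher in colon. In 9S/T-A 60 of 74 passed, 45 lower and 15 higher. Over all genes tested, 30.4% were lower and 33.1% higher in WT colon, and 28.0% lower and 32.9% higher in 9S/T-A colon. With the replicate number as a block the counts were 47 lower and 15 higher in WT and 48 lower and 15 higher in 9S/T-A. This split depends on the scaling: with plain library totals, which move the median of all genes by 0.74 in WT and 0.85 in 9S/T-A, it was 29 lower and 32 higher in WT and 31 lower and 32 higher in 9S/T-A. The 10 genes of the list kept their direction and their calls under either scaling.

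Of 9 genes of digestion and uptake at the brush border, 7 were lower and 2 higher in WT colon, with a median log2 fold change of -4.27. Npc1l1, the cholesterol importer, fell from 199 ± 35.2 to 0.343 ± 0.114 CPM (log2 fold change -9.20, SE 0.20), and Pnliprp2, a pancreatic lipase-related protein, from 508 ± 128 to 3.52 ± 1.08 CPM (-7.20, SE 0.25). Scarb1, a receptor for high-density lipoprotein, rose from 3.66 ± 0.696 to 35.8 ± 5.48 CPM (3.25, SE 0.14). Among binding proteins, 3 of 4 were lower and 1 higher, and Rbp2, which carries retinol, fell from 337 ± 124 to 3.37 ± 1.15 CPM (-6.67, SE 0.30).

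Re-esterification enzymes were lower in 8 of 12 and higher in 3, with Lpin1, a phosphatidate phosphatase, at 6.38 ± 0.766 CPM in WT SI and 12.3 ± 2.93 in WT colon (log2 fold change 0.91, SE 0.14). Of 4 acyl-CoA synthetases 2 were higher and 1 lower: Acsl5 fell from 260 ± 76.9 to 105 ± 11.3 CPM (log2 fold change -1.34, SE 0.16), while Acsl3 rose from 31.6 ± 3.60 to 103 ± 7.44 CPM (1.67, SE 0.09) and Acsl4 from 5.16 ± 1.12 to 13.0 ± 1.87 CPM (1.29, SE 0.14). Of the 12 genes of chylomicron assembly and export, 7 were lower, 0 higher and 5 did not pass, with a median log2 fold change of -0.22, smaller than that of Apob and Mttp. Of the 6 other apolipoproteins and export genes tested, 3 were lower and 1 higher: Apoc2, the activator of lipoprotein lipase, fell from 258 ± 44.8 to 1.69 ± 0.344 CPM (-7.29, SE 0.18), and Abca1, which loads apolipoprotein A-I, rose from 3.49 ± 1.10 to 6.59 ± 1.19 CPM (0.88, SE 0.18). Lipid droplet genes were mixed, 5 of 9 lower and 3 higher.

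Of 14 transcription factors of enterocyte lipid genes, 11 were lower in WT colon, 2 higher and 1 did not pass. Gata4, a factor of proximal SI, fell from 108 ± 6.90 to 0.329 ± 0.146 CPM (log2 fold change -8.37, SE 0.19), and Creb3l3, a membrane-bound factor of lipid genes, from 55.4 ± 19.5 to 0.202 ± 0.0776 CPM (-8.12, SE 0.30). Ppargc1a, a coactivator of mitochondrial genes, rose from 5.34 ± 2.14 to 21.2 ± 4.26 CPM (1.96, SE 0.22). Of the 3 ileal bile acid genes tested besides Fabp6, 2 were lower and 1 higher in WT colon. All these named genes had edgeR adjusted p under the threshold in 9S/T-A as well, with the same sign.

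**Figure D5:**
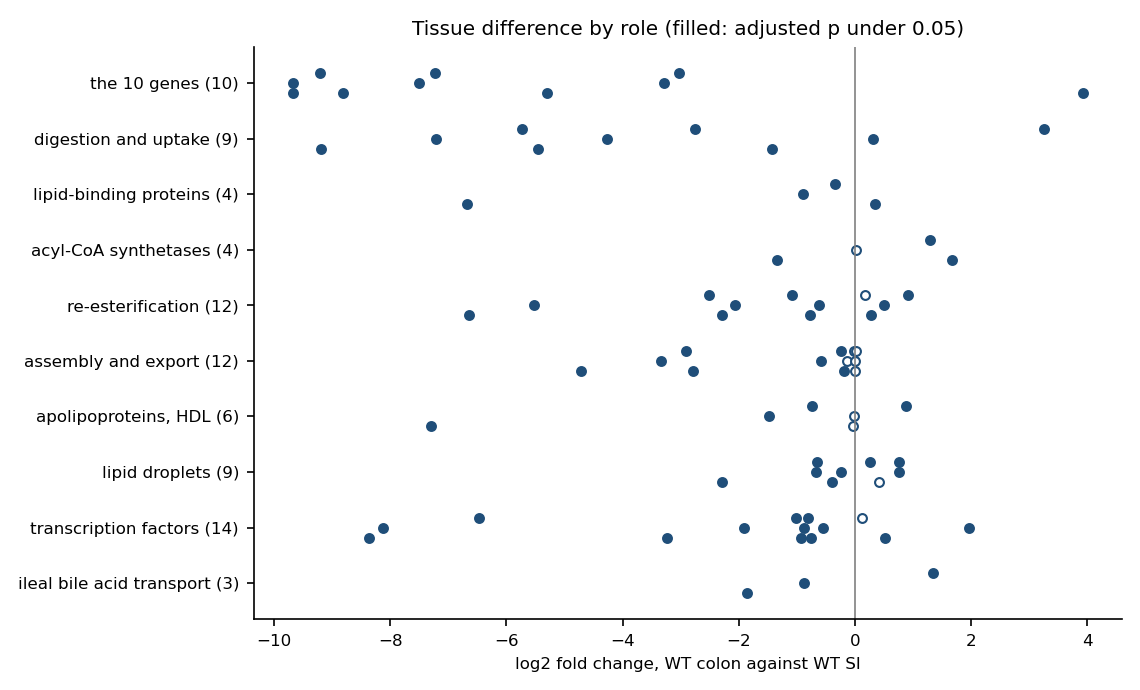
Log2 fold change of WT colon against WT SI (edgeR) for the 10 genes and for the tested genes of each of 9 roles, with the number of genes in brackets and 1 point per gene. Filled points passed an adjusted p under 0.05, and after the 10 genes the roles that reach furthest to the left are digestion and uptake (Npc1l1, -9.20), transcription factors (Gata4, -8.37) and other apolipoproteins (Apoc2, -7.29).

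Between genotypes the pathway lists gave few calls, and so did all genes tested, of which 1.94% were called in SI and 0.318% in colon. In SI 1 of 74 tested passed, Apoc2, which ran from 182 to 301 CPM (median 270) in WT and from 310 to 616 (median 406) in 9S/T-A without overlap, 1.63-fold higher (log2 fold change 0.70, SE 0.16, edgeR adjusted p = 0.0384). That edgeR call was lost without 9S/T-A SI replicate 3, 4, 5 or 6 or WT SI replicate 3, 4, 5, 6 or 7 (adjusted p 0.0171 to 0.0976 over all 12 omissions), and with plain library totals (adjusted p = 0.0561). In colon 1 of 72 passed, Clps, the cofactor of pancreatic lipase, which ran from 40.7 to 62.9 CPM (median 48.8) in WT and from 88.3 to 142 (median 115) in 9S/T-A, 2.28-fold higher (log2 fold change 1.21, SE 0.12, edgeR adjusted p = 0.000329). It passed in each of the 12 edgeR fits that left out 1 library (adjusted p at most 0.00199).

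In the test of genotype by tissue 2 of 74 passed, against 0.412% of all genes tested. The genotype difference of Clps was larger in colon than in SI by 0.88 on the log2 scale (SE 0.19, edgeR adjusted p = 0.0305), since in SI it ran from 652 to 1044 CPM in WT and from 967 to 1495 in 9S/T-A and did not pass (log2 fold change 0.31, adjusted p = 0.262). The difference of Pnliprp2 was larger in colon by 1.88 (SE 0.42, edgeR adjusted p = 0.0432). In colon its mean was 3.52 ± 1.08 CPM in WT and 9.24 ± 6.06 in 9S/T-A, in SI 508 ± 128 and 361 ± 72.2, and neither comparison passed alone in edgeR (adjusted p = 0.181 in colon and 0.176 in SI; DESeq2 adjusted p = 0.0425 in colon and 0.0858 in SI). With the replicate number as a block in edgeR the call of Pnliprp2 was lost (1.68, adjusted p = 0.0550) and that of Clps held (adjusted p = 0.00181). Leaving out 1 of the 24 libraries lost the call of Clps in 9 fits (adjusted p 0.00452 to 0.0662 in edgeR) and that of Pnliprp2 in 17 (0.0118 to 0.0985 in edgeR).

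For each gene, the genes most like it were found from deviations from the group means of log2(CPM + 1) over the 24 libraries, as a description. These points share library depth and cell makeup. Mttp was nearest to Mogat2, a monoacylglycerol acyltransferase (Pearson r = 0.95), then to Nat8 (0.95) and the brush-border peptidase gene Dpp4 (0.93). Apoa1 was nearest to Lct, which encodes lactase (0.89), then to Slc5a11 and Mme (0.88 each), and Apob to Tgfbi (0.88), Mgam (0.87) and Lpgat1 (0.85). Apoa4 was nearest to Otop3 (0.88), then to Apoc3 (0.87), a gene of the same cluster, and Hsd17b6 (0.85), while Apoc3 was nearest to Hsd17b6 and Apoa4 (0.87 each) and Reg3a (0.83). Fabp1 was nearest to Slc25a45 (0.95), Arg2 and Mfsd4b2 (0.93 each), Fabp2 to Hagh (0.87) and Cyp4f40 (0.86), Cd36 to Rdh7 (0.95), Unc93a (0.94) and Fbp1 (0.93), and Dgat1 to Pdzk1 (0.90), Bst1 and Slc28a1 (0.88 each). The markers Lct, Mgam and Dpp4 among these neighbours are also on the enterocyte list. Fabp6 was nearest to Lpo (0.75), Mad1l1 (0.74) and Pygb (0.72), and its r with the other 9 genes ran from -0.13 to 0.23. Among those 9 genes r ran from 0.40 (Apob and Apoc3) to 0.88 (Fabp1 and Cd36). Fabp6 had 12 reads or fewer per SI library, and Apoc3 and Cd36 had 9 or fewer per colon library. Levels that near the floor hardly vary on this scale, so a low r cannot show that Fabp6 varied separately.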

How the data were processed

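RNA-seq was run on 24 libraries of sorted EpCAM+tdTom+ cells, 6 per genotype and tissue. The deposited files hold whole-number counts per gene: the authors sequenced stranded mRNA libraries as 50-base single reads, aligned them to GRCm38.p3 with TopHat2 and counted exon reads by strand with featureCounts, 1 file per library, with no normalization. Symbols were matched to 44585 of 45513 gene identifiers. The 10 genes, the pathway and marker lists and the tests were chosen with earlier results of these data known. Pathway genes were named if their genotype or genotype-by-tissue test passed, or as the 6 largest called tissue changes each way in WT with a mean log2 CPM of at least 1. The 10 genes were always named, with the 3 genes most like each, of which 1 is not reported here. Acsl5, the leukocyte markers, the called cell markers, the neighbouring gene models and the motifs were named after their values were seen.

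Genes were filtered with filterByExpr, scaled by TMM and tested with edgeR 4.0.16 (R 4.3.3; glmQLFit and glmQLFTest, Benjamini-Hochberg adjustment over all genes tested, called under 0.05); the scripts were tested on simulated data. Levels are TMM CPM over all 24 libraries, and each pooled read ratio has an exact 95% binomial interval. The labels do not tie libraries to mice, so p-values measure the spread between these libraries, which may be partly technical. Depth was 36.0 to 65.8 M counts. Alternatives were RLE scaling, plain totals, no filter on genes, a filter at a mean count of 10, DESeq2 1.42.0, sex as a covariate, the replicate number as a block, all 24 libraries in one fit, and leaving out each library. Same-numbered libraries deviated together between tissues. Their correlations were 0.193 to 0.597 in WT and 0.199 to 0.678 in 9S/T-A, over 0.1 for all 6 numbers in each. The means were 0.321 and 0.404. Between genotypes, where same-numbered libraries cannot come from the same mouse, the means were 0.447 in colon and 0.205 in SI. Each number also had the same sex in every group. These correlations therefore cannot show that a number marks the same mouse, and the replicate block rests on the numbers in the labels.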

Additional observations from a re-analysis of the deposited data

Results flagged for a closer look

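In groups of 6, 10 of 92 tested sets of levels (4 of 40 for the 10 genes) had 1 library far from the other 5 by Dixon's criterion, which chance gives in about 1 of 20. Apoc3 was 135 CPM in 9S/T-A SI replicate 3. Mttp was 680 CPM in 9S/T-A SI replicate 2. Fabp6 was 2.97 CPM in WT colon replicate 3. Cd36 was 0.0489 CPM, from 3 reads, in 9S/T-A colon replicate 3.

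Among the other pathway genes, Abca1 was high at 5.68 CPM in WT SI replicate 5, Acsl3 high at 42.4 CPM in 9S/T-A SI replicate 7, and Lpin1 high at 17.9 CPM in WT colon replicate 3. Acsl3 was low at 88.9 CPM in WT colon replicate 7, Clps low at 652 CPM in WT SI replicate 7 and Gata4 low at 94.4 CPM in WT SI replicate 6.

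The genotype difference was larger in colon than in SI for Clps (by 0.88 on the log2 scale) and Pnliprp2 (by 1.88), both by the edgeR test of genotype by tissue.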

How the results depend on the processing

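All 400 tissue fold changes of the 10 genes recomputed under alternatives kept their direction and call, as did 1035 of 1053 over all comparisons. DESeq2 called 3 members and 2 other pathway genes in SI and 3 other pathway genes in colon; all 24 libraries in one fit called 3 members in SI, 1 of them Fabp6, which entered through colon; plain totals called 0 other pathway genes in SI. With the replicate block, 2 other pathway genes passed in colon and 1 in the test of genotype by tissue. For genotype, same-numbered libraries share number and sex but no mouse: the correlations were -0.118 to 0.733 in SI and 0.016 to 0.868 in colon. With the block 477 of all genes passed in SI, against 315, and 385 in colon, against 54. Pla2g2a lost its call in SI (edgeR adjusted p = 0.0503), and Pnliprp2 its call in the test of genotype by tissue (edgeR adjusted p = 0.0550). In SI 4 of 10 enteroendocrine markers and 3 of 4 tuft markers passed with the block, against 1 of each without it. Leaving out 1 library gave 0 to 1 members and 0 to 1 other pathway genes in SI, and 0 to 2 other pathway genes by tissue; the Clps difference lost its call without 9S/T-A colon 3 or 4, WT colon 3, 5 or 6, or WT SI 3, 4, 5 or 6. Values near 0 turned sign when 1 library was left out: Mttp in SI ranged from -0.11 (without 9S/T-A SI 2) to 0.38, and in colon Apob ranged from -0.079 to 0.13, Apoa4 from -0.19 to 0.0095 and Dgat1 from -0.039 to 0.0042. Apob in colon was also -0.030 with plain totals, -0.0097 with the block and -0.0030 in the fit of all 24. The cause was not tested. Depth limits Fabp6 in SI and Apoc3 and Cd36 in colon, at 12 reads or fewer per library.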
